A study of Mus musculus with 2 samples.

Results

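The cells described here are microglia that hold many *Apoe* counts but no count of the late disease-associated microglia (DAM) genes *Cst7*, *Lpl* and *Spp1*. They were selected on their own measured values: at least 20 unique molecular identifier (UMI) counts of *Apoe*, a sum of 0 for the 3 late genes, at least 1 count of *P2ry12*, fewer than 5 counts in sum of the border-associated macrophage genes *Mrc1*, *Pf4*, *Ms4a7*, *Cd163* and *Cbr2*, and fewer than 100 counts of the choroid plexus gene *Ttr*. Of 42766 cells in the data, 5269 met these limits and are called Apoe-high cells below. The 31560 cells that met the other limits with fewer than 20 *Apoe* counts are called Apoe-low cells and were the group for comparison. *Apoe* and the other genes of the rule are therefore given as a description only.

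*Apoe* encodes apolipoprotein E, a lipid carrier that mainly astrocytes make in the healthy brain and that microglia express when they meet amyloid plaques, dying neurons or myelin debris. In the DAM program, microglia lower homeostatic genes such as *P2ry12*, *Tmem119* and *Cx3cr1* and raise *Apoe*, *Tyrobp*, *B2m* and cathepsins at an early stage that does not need the lipid receptor Trem2. A later stage that needs Trem2 adds *Cst7*, *Lpl*, *Spp1*, *Itgax* and *Axl*.

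The mice were PSAPP (APPswe/PS1δE9), which carry transgenes for mutant human amyloid precursor protein and presenilin 1 and deposit amyloid plaques. All of them carried both transgenes and were treated by mouth for 30 days, from 9 to 10 months of age, either with vehicle (VEH) or with lemborexant (LEM), an orexin receptor antagonist used against insomnia, at 30 mg/kg/day. The cells came from cortex and hippocampus together and had passed a sort for live CD45loCD11b+ cells, so neither region nor distance from plaques is known for a cell. In all, 5 mice of both sexes were pooled into 1 library per treatment. With 1 library each there was no replicate and no test was made: intervals in parentheses are exact 95% intervals, Clopper-Pearson for shares and Poisson for summed counts, and cover counting error only. Female and male cells of a library could be parted by *Xist* and Y-linked counts. Since the sexes of a pool come from different mice, the 4 library-by-sex groups served as a measure of spread.

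The Apoe-high cells were 1471 of 18374 VEH cells and 3798 of 24392 LEM cells. They carried more RNA than the Apoe-low cells, with a median of 7805 (VEH) and 7578 (LEM) counts against 5625 and 5584, and 2949 and 2928 genes against 2480 and 2494. A threshold in raw counts favours deep cells, and the part of depth in the results was not tested beyond the alternatives given beside them. Mitochondrial counts were 0.764% and 0.791% of their total against 0.653% and 0.663%. Droplets with counts of both sexes, which can be doublets, made up 6.80% and 10.7% of them against 4.65% and 5.74%.

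The cells matched the microglial label. *C1qa*, a complement gene that microglia express highly, stood at 8480 counts per 1000000 counts of the group (CPM) in VEH and 8974 in LEM Apoe-high cells, against 8102 and 8526 in Apoe-low cells. *Sall1*, a transcription factor that marks microglia, stood at 330 and 336 CPM against 353 and 368. Markers of most other cells were sparse. Those of oligodendrocytes were not: the 8 genes summed to 104 and 109 CPM in Apoe-high cells against 108 and 110 in Apoe-low cells. The most abundant of them, *Cnp*, had a count in 32.2% and 33.3% of Apoe-high cells, against 23.8% and 22.7%. The 8 astrocyte genes summed to 4.99 and 6.45 CPM in Apoe-high cells against 4.52 and 5.39, with *Gja1* at 0 in the VEH cells, and of 8 lymphocyte genes none had a count in VEH and 2 had one in LEM. The 10 macrophage genes outside the rule summed to 176 and 185 CPM against 163 and 193, mostly from *Stab1*, with *Lyve1* and *Cd209f* at 0 in the Apoe-high cells of both libraries. Of these genes, *Mgl2*, a macrophage lectin, went with *Apoe*, at 0.885 against 0.0238 CPM in VEH and 0.971 against 0.0300 in LEM, with a count in 0.204% and 0.237% of Apoe-high cells. *Colec12*, a scavenger receptor, stood at 49.6 against 24.8 CPM in VEH and 46.8 against 44.4 in LEM. The part of such cells in the results was not tested. The 7 monocyte and neutrophil genes summed to 8.13 and 10.6 CPM against 8.51 and 9.45.

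Apoe-high cells were a larger share of the cells in the LEM library than in the VEH library. They were 9.24% (8.80–9.70) of the 15914 VEH cells within the other limits and 18.2% (17.6–18.7) of the 20915 LEM cells, a log2 ratio of LEM over VEH of 0.97 (0.89–1.06). In female cells the shares were 3.81% (187 of 4907 cells) and 6.11% (438 of 7168), a log2 ratio of 0.68 (0.43–0.94). In male cells they were 12.97% (1029 of 7931) and 26.7% (2653 of 9941), a log2 ratio of 1.04 (0.94–1.15). The ratio was positive in both sexes. A pool of 5 mice stands behind each share, and a difference between treatments cannot be told apart from one between the pools.

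Sex set the shares further apart than the libraries did. The share in male cells was 3.405-fold that in female cells in VEH (log2 1.77, 1.54–2.0001) and 4.37-fold in LEM (log2 2.13, 1.98–2.28). Male cells were 84.6% and 85.8% of the Apoe-high cells with a called sex, against 61.8% and 58.1% of all such cells within the other limits. How many mice of each sex were pooled is not given in the sources used here, and single mice within a pool cannot be parted.

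The whole distribution of *Apoe* counts was shifted, not its upper end alone. Cells without any *Apoe* count were 63.0% of VEH female, 39.97% of VEH male, 47.8% of LEM female and 16.1% of LEM male cells. In both libraries the share was lower in male than in female cells, and in both sexes it was lower in LEM than in VEH. At the other end, cells with at least 80 *Apoe* counts were 0.102% (5 cells), 0.593% (47), 0.223% (16) and 0.905% (90) in the same order. The median among Apoe-high cells was alike in both libraries, at 31 counts in VEH and 30 in LEM, and so was the level, at 4539 and 4365 CPM. Among Apoe-low cells the level was 449 CPM in VEH and 781 CPM in LEM.

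**Figure D1:**
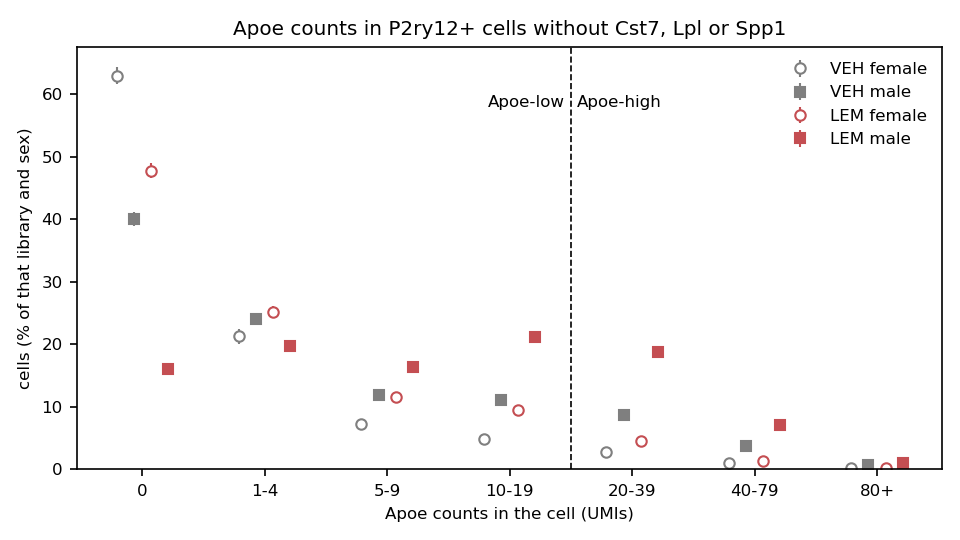
Share of cells (y, percent of the cells of that library and sex within the other limits of the rule) by the *Apoe* counts of the cell (x, UMIs). Points are the 4 library-by-sex groups with 95% Clopper-Pearson intervals, grey for VEH, red for LEM, open circles for female and filled squares for male cells, and the dashed line is the threshold of 20. VEH female cells lead at 0 counts (63.0%) and LEM male cells are highest in each class from 5 counts on.

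In all, 5 genes outside the rule stood at least 0.5 higher on the log2 scale in Apoe-high than in Apoe-low cells in all 4 library-by-sex groups: *Cd74*, *Lyz2*, *Cox6a2*, *Itgax* and *Cd63*. They were 0.0612% of the 8173 genes detected in at least 10% of Apoe-high or Apoe-low cells, and 2 genes, or 0.0245%, stood at least 0.5 lower, *Gm26917* and *Cacnb2*. *Cox6a2* and *Itgax* passed the detection limit only through the Apoe-high cells, where they are high, so that their place among the 5 is partly set by the limit. With detection required in Apoe-low cells, a choice made after seeing the values, 7267 genes were left, of which 3 stood 0.5 higher, *Cd74*, *Lyz2* and *Cd63*, and 2 stood 0.5 lower. With the Apoe-low cells weighted to the depth of the Apoe-high cells, 2 of the 5 stood above 0.5 in all 4 groups, *Cd74* and *Lyz2*. Small shifts were far more frequent. In all 4 groups 831 genes (10.2%) were higher and 3336 (40.8%) lower, with a median over all genes of −0.10. Under scaling by the median of ratios, which moved the ratios up by between 0.08 and 0.09, these became 22.2% and 21.3%.

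*Lyz2*, the lysozyme of myeloid cells and an early DAM gene, was the clearest of the 5. Its level in Apoe-high against Apoe-low cells was 552 against 212 CPM in VEH female, 425 against 173 in VEH male, 504 against 262 in LEM female and 390 against 230 in LEM male cells. The 4 levels in Apoe-high cells all lay above the 4 in Apoe-low cells, and how many of all genes do so was not counted. The log2 ratios were 1.38 (1.28–1.49), 1.30 (1.24–1.36), 0.95 (0.87–1.02) and 0.76 (0.72–0.80), with a mean of 1.10 ± 0.29 (SD over the 4 groups) and of 1.02 after weighting for depth. In VEH, 83.2% of Apoe-high and 46.4% of Apoe-low cells had a count. Once those deep enough were thinned to 2000 counts, 49.2% and 26.1% did. These thinned cells were still chosen on their raw counts. In LEM the shares were 83.1% and 57.0%, and 47.8% and 33.0% of thinned cells. Its near-identical neighbour *Lyz1* was at most at 0.241 CPM, and reads from either copy may have been counted for *Lyz2* or dropped.

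*Cd63*, a tetraspanin of late endosomes and lysosomes, stood at 563 against 346 CPM in VEH female and 413 against 286 in VEH male cells, and at 639 against 425 and 603 against 381 in LEM. The log2 ratios were 0.70, 0.53, 0.59 and 0.66, a mean of 0.62 ± 0.08 and the tightest of the 5. *Itgax*, the integrin CD11c and a later DAM gene, was rare, with a count in 13.9% of VEH and 18.8% of LEM Apoe-high cells. It stood at 20.0 against 11.6 CPM in VEH and 28.9 against 18.9 in LEM, and its log2 ratios lay between 0.51 and 0.91. *Cox6a2*, a subunit of cytochrome c oxidase best known from muscle, lies 54777 bases from *Itgax* on chromosome 7 and stood at 20.2 against 10.4 and 22.9 against 13.8 CPM, with a mean log2 ratio of 0.88 ± 0.18.

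*Cd74*, the invariant chain of MHC class II, had the largest mean ratio (2.06 ± 1.11) but owed it to few cells. Its level was 167 against 49.9 CPM in VEH and 154 against 50.9 CPM in LEM. In Apoe-high cells the 5% with the most *Cd74* held 84.5% of its counts in VEH and 81.5% in LEM. Cells with at least 10 counts numbered 26 of 1471 (1.77%) and 44 of 3798 (1.16%), against 0.374% and 0.275% of Apoe-low cells. This limit is in raw counts, which deeper cells pass more often. Cells with at least 10 *Cd74* counts were then left out on both sides, a choice made after seeing the values. The mean ratio was 0.30, while that of *Lyz2* was 1.04 and that of *Cd63* 0.62. *H2-Aa*, an MHC class II chain, had a count in 1.84% of VEH and 1.82% of LEM Apoe-high cells, against 0.886% and 0.678% of Apoe-low cells.

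**Figure D2:**
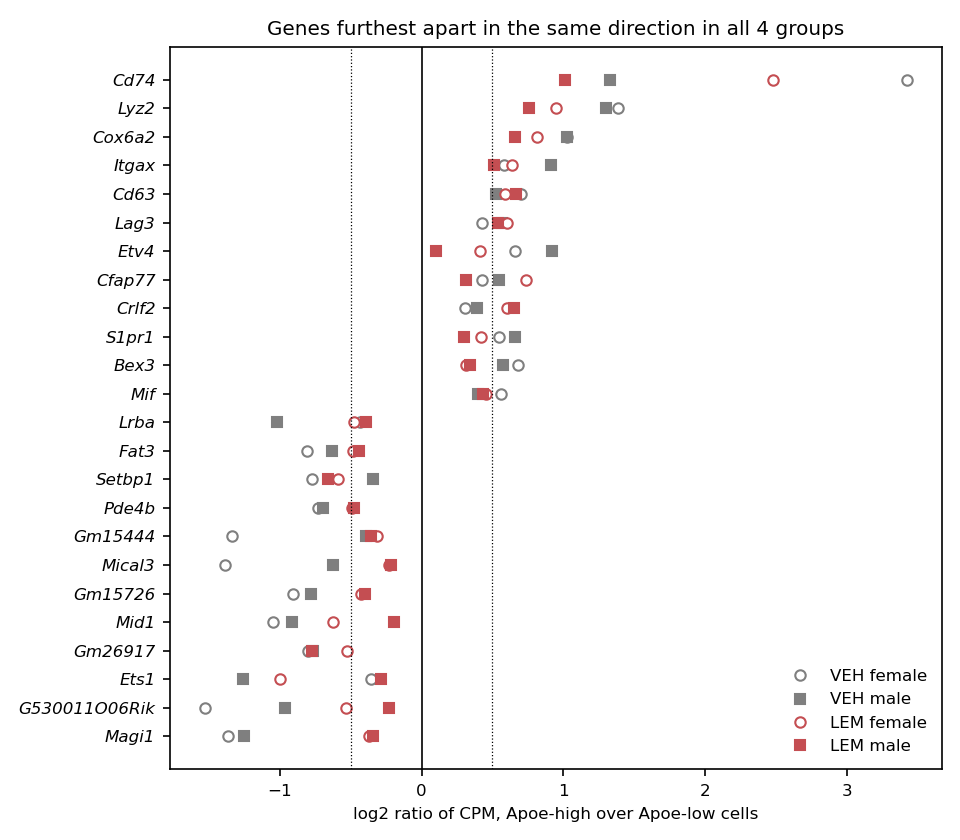
Log2 ratio of CPM, Apoe-high over Apoe-low cells (x), for the 12 highest and 12 lowest genes by the mean of the 4 library-by-sex groups among genes with the same sign in all 4 (y). Grey is VEH, red LEM, open circles female and filled squares male cells, and dotted lines mark 0.5 either way. The 5 genes at the top lie beyond 0.5 in all 4 groups, *Cd74* is spread from 1.01 to 3.42 and *Cd63* from 0.53 to 0.70.

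The stretch of 250 bases before the start of *Apoe* and of *Lyz2* and *Itgax*, leading genes with a RefSeq entry near the annotated start is shown so that the regions behind these transcripts can be compared. They are from RefSeq on GRCm38.p6, the build of the mm10 reference, 5′ to 3′ on the strand of the gene, with capitals at matches of GGAAGT (the core that ETS factors such as PU.1 bind) or CACGTG (an E-box bound by TFEB and MITF) on either strand. The 2 motifs do not overlap here.
Apoe, chr7:19699189-19699438, minus strand: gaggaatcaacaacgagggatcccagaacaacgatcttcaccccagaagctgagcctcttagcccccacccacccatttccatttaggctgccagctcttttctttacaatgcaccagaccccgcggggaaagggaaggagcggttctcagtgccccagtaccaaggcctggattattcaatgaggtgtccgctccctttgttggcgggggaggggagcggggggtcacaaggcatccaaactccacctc
Lyz2, chr10:117282273-117282522, minus strand: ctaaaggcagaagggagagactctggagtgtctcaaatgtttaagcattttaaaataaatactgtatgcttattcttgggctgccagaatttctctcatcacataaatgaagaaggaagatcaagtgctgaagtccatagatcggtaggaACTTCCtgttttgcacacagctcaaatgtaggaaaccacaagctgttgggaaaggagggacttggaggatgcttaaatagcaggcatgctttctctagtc
Itgax, chr7:128129300-128129549, plus strand: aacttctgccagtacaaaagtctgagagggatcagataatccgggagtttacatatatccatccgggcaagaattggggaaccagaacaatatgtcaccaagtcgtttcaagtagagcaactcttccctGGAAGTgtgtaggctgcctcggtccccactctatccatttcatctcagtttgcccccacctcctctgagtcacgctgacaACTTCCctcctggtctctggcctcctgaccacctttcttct
Positions are counted from the RefSeq start, which for *Lyz2* lies 49 bases from the GENCODE one. The *Lyz2* stretch held 1 match of GGAAGT, 100 bases before the start, and the *Itgax* stretch 2, at 121 and 41 bases. The *Apoe* stretch held none, and none of the 3 held CACGTG. Of 32851 such stretches in the table, 19.7% held GGAAGT and 6.02% CACGTG, so a match is common and is a description, not a site of binding. The stretch of *Cd74* is not shown here. *Cox6a2* and *Cd63* had no entry within 100 bases of their annotated start. In the GENCODE M21 annotation the *Apoe* gene spans chr7:19696109-19699188, and *Apoc1* begins 3448 bases beyond its end.

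The next genes by mean ratio were *Lag3*, *Etv4*, *Cfap77*, *Crlf2*, *S1pr1*, *Bex3* and *Mif*, with means between 0.46 and 0.53. Of these, *Etv4* and *Bex3* passed the detection limit only through the Apoe-high cells. *Lag3*, an inhibitory receptor of the CD4 family, stood at 539 against 402, 538 against 364, 559 against 368 and 610 against 420 CPM in VEH female, VEH male, LEM female and LEM male cells. Its levels in Apoe-high cells did not overlap those in Apoe-low cells, which was not counted for all genes. *Mif*, a cytokine gene, stood at 147 against 113 CPM in VEH and 152 against 119 in LEM.

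Early DAM genes were higher as a group, by small amounts. All 6 tested (*Tyrobp*, *B2m*, *Ctsb*, *Ctsd*, *Fth1* and *Lyz2*) were higher in Apoe-high cells in all 4 groups, where 10.2% of all genes were, and their median ratio was 0.25. *Tyrobp*, the adaptor that Trem2 signals through, stood at 2821 against 2491 CPM in VEH and 2941 against 2539 in LEM. *Ctsb* and *Ctsd*, cathepsins of the lysosome, had mean ratios of 0.28 ± 0.03 and 0.25 ± 0.05. *B2m*, the light chain of MHC class I, had 0.22 ± 0.07. All 6 were also higher in all 4 groups with the depth weighting, with a median of 0.19. The list holds genes that were known from other results of these data when it was written and is no independent evidence.

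Most later DAM genes that the rule did not use were higher too. Of the 7 tested, *Trem2*, *Ctsl*, *Cd9*, *Itgax* and *Timp2* were higher in all 4 groups and none was lower in all 4, where 10.2% of all genes were higher and 40.8% lower, with a median of 0.36. Of the 7, *Itgax* and *Csf1* passed the detection limit only through the Apoe-high cells, and among the other 5 genes 4 were higher in all 4 groups. With the sexes pooled, *Ccl6* was lower in both libraries. *Csf1* stood at 20.3 against 18.7 CPM in VEH and 19.8 against 19.6 in LEM. The median of the list was then 0.25 in VEH and 0.20 in LEM. *Trem2*, the lipid receptor on which the late stage depends, stood at 2545 against 2139 CPM in VEH and 2449 against 2145 in LEM, a mean ratio of 0.21 ± 0.04. *Axl*, a receptor for dying cells and too rare to be tested, stood at 7.32 against 3.65 and 9.74 against 6.36 CPM. A sum of 0 for *Cst7*, *Lpl* and *Spp1* does not show that the cells lacked these transcripts: at the median depth, 3 counts would be 384 CPM in VEH and 396 CPM in LEM. Among 13 further DAM genes, 11 were higher in all 4 groups and only *Cadm1* was lower in all 4, with a median of 0.17, and 10 of 12 were higher without *Cox6a2*, which passed the detection limit only through the Apoe-high cells. *Gpnmb* was at 0 in VEH and 0.282 CPM in LEM Apoe-high cells.

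**Figure D3:**
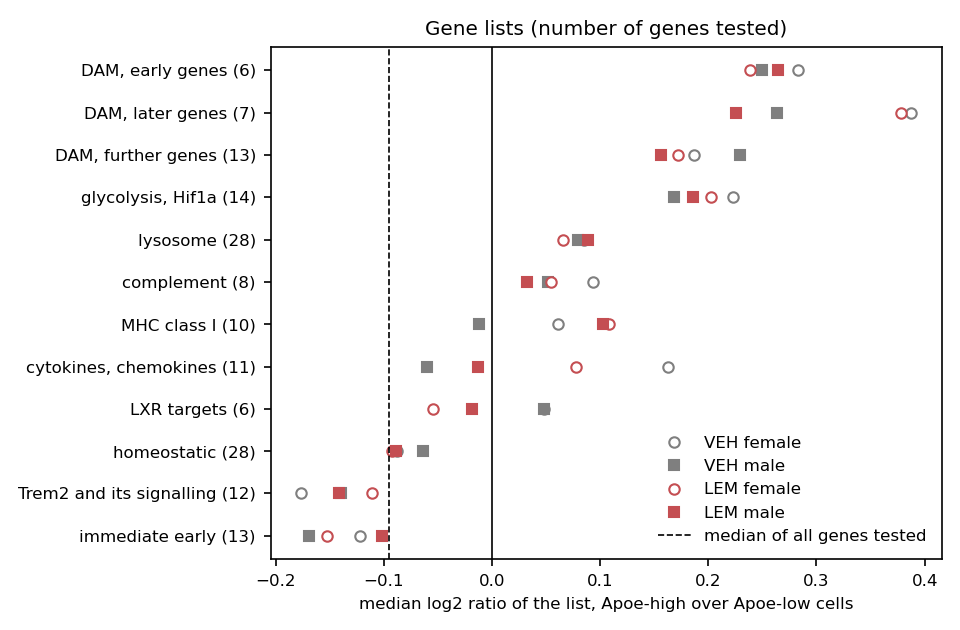
Median log2 ratio of each gene list, Apoe-high over Apoe-low cells (x), in the 4 library-by-sex groups (colours and shapes as for the single genes), with the number of genes tested beside each list. The dashed line is the median of all 8173 genes, −0.10. Points of the 3 DAM lists and of glycolysis lie to the right of 0 in all 4 groups, and those of the immediate early list lie to the left of the dashed line.

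Homeostatic genes differed little. Of 28, 16 were lower and 3 higher in all 4 groups, where 40.8% and 10.2% of all genes were, with a median of −0.09 beside −0.10 for all genes, and under scaling by the median of ratios the counts were 7 and 7 with a median of −0.00. *Tmem119* stood at 2156 against 2176 CPM in VEH and 2088 against 2231 in LEM, and *Cx3cr1*, the fractalkine receptor, at 3216 against 3244 and 3043 against 3249. *P2ry12*, which the rule required, stood at 4750 against 4493 and 4405 against 4321. The lowest mean ratios among these 16 were those of *Gp9* (−0.30), *Mef2a* (−0.28) and *Tgfbr1* (−0.25). Opposite to these, *Cst3* (0.30 ± 0.03) and *Crybb1* (0.21 ± 0.08) were among those higher in all 4.

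*Cst3*, cystatin C, is an inhibitor of cathepsins and the most abundant of the genes named here. Its level was 78094 against 62866 CPM in VEH and 66528 against 54416 in LEM. With the sexes pooled, its counts followed those of *Apoe* most closely of the tested genes in both libraries, though weakly, with a Spearman rho of 0.20 over 14816 VEH and 0.29 over 20019 LEM cells thinned to 2000 counts each. Within VEH, *Lyz2* had a higher rho than *Cst3* in female (0.174 against 0.124) and in male cells (0.227 against 0.190). The cells share a library and its free RNA, and the values are a description. The complement genes *C1qa*, *C1qb* and *C1qc* were among the 4 of 8 complement genes higher in all 4 groups, with mean ratios of 0.09, 0.21 and 0.13, while *Itgam*, the complement receptor CD11b used in the sort, was 1 of 2 lower in all 4, at −0.13, beside 10.2% of all genes higher and 40.8% lower. Scaled by the median of ratios, 6 of the 8 were higher and 0 lower.

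Lysosomal and glycolytic genes were higher in larger numbers than the background of 10.2% higher and 40.8% lower. Of 28 lysosomal genes tested, 17 were higher and 2 lower in all 4 groups, with a median of 0.07. They include *Ctss* (0.21), *Tpp1* (0.20), *Lamp1* (0.19), *Psap* (0.14) and *Atp6v0c*, a subunit of the proton pump (0.13). Of 14 genes of glycolysis with *Hif1a*, 11 were higher in all 4 groups and none lower, with a median of 0.19 and of 0.11 after the depth weighting. The enzymes *Aldoa* (0.34), *Pgam1* (0.28), *Pkm* (0.27) and *Tpi1* (0.25) stood highest. *Hk1*, *Hk2* and *Gapdh* were the 3 of mixed sign. *Hk2*, a hexokinase, stood at 106 against 113 CPM in VEH and 102 against 113 in LEM, and *Hk1* at 13.5 against 16.8 and 14.0 against 14.4. *Gapdh* stood at 179 against 268 CPM in VEH and 625 against 590 in LEM, and was itself far apart between the libraries.

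Lipid genes differed little. Of 6 tested targets of the liver X receptors, which also drive *Apoe*, only *Scd2*, a fatty acid desaturase, was higher in all 4 groups (0.33 ± 0.11), and the median was −0.01. Scaling by the median of ratios, which lifts all genes alike and left 22.2% of them higher and 21.3% lower, gave 3 higher and a median of 0.08. *Abca1*, the exporter that loads apolipoprotein E with lipid, stood at 396 against 395 CPM in VEH and 417 against 417 in LEM. *Abcg1* stood at 98.5 against 97.1 and 101 against 97.9. Of 8 genes of lipid uptake and storage 2 were higher in all 4 groups, *Npc2* (0.27), which carries cholesterol out of lysosomes, and *Plin2* (0.18), which coats lipid droplets, and 3 were lower in all 4, *Acsl1* (−0.15), *Npc1* (−0.10) and *Lrp1* (−0.07), where 10.2% of all genes were higher and 40.8% lower. Scaled by the median of ratios, 4 of the 8 were higher and 0 lower. Of 5 tested neighbours of *Apoe* on chromosome 7, *Clptm1* was higher (0.06) and *Clasrp* lower (−0.09) in all 4 groups, and scaled by the median of ratios 2 were higher and 0 lower. *Apoc1* was too rare to be tested, at 2.01 against 0.250 CPM in VEH and 2.004 against 0.270 in LEM.

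*Trem2* and *Tyrobp* stood apart from the kinases and adaptors behind them. Of 12 genes of this list, both were higher in all 4 groups and 9 were lower, with a median of −0.15, where 40.8% of all genes were lower in all 4. *Pik3ap1* (−0.35), *Lat2* (−0.32), *Syk* (−0.27) and *Inpp5d* (−0.21) were among the lower ones. Under scaling by the median of ratios 4 were higher and 8 lower. The share of genes lower in all 4 groups differed with gene length, as given below. This list was not set beside genes of like length. Immediate early and heat shock genes were lower, with 11 of 13 lower in all 4 groups, none higher and a median of −0.14, but scaling by the median of ratios left 5 of 13. Of 11 cytokine genes 3 were higher and 2 lower in all 4 groups, beside 10.2% and 40.8% of all genes, and 4 and 0 under scaling by the median of ratios. *Ccl3* and *Ccl4*, chemokines of activated microglia, were among those higher in all 4 groups (0.39 ± 0.06 and 0.35 ± 0.04). They were unevenly held: 5% of the VEH Apoe-high cells held 46.7% of *Ccl3* and 54.0% of *Ccl4* counts. Cells with at least 10 *Ccl4* counts were 11.5% and 11.8% of Apoe-high cells, against 6.76% and 6.496% of Apoe-low cells.

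The genes lowest in Apoe-high cells were *Magi1*, *G530011O06Rik*, *Ets1*, *Gm26917*, *Mid1*, *Gm15726*, *Mical3*, *Gm15444*, *Pde4b*, *Setbp1*, *Fat3* and *Lrba*, with means between −0.83 and −0.58. *Gm26917* and *G530011O06Rik* are non-coding transcripts. *G530011O06Rik* and *Gm15726* lie inside *Mid1* on the other strand of the X chromosome, so the 3 are no separate observations, and their reads can be told apart only by strand. *Pde4b*, a phosphodiesterase that breaks down cyclic AMP, was the evenest of the coding genes, at 17.0 against 28.5 CPM in VEH and 22.4 against 34.2 in LEM, with ratios between −0.73 and −0.48. *Magi1*, a scaffold protein, was lower by far more in VEH (−1.37 and −1.25) than in LEM (−0.37 and −0.34).

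Many of these genes are long, and length was a feature that the rule had not used. The median gene, measured from start to end with introns, spanned 25.2 kb among all tested genes, 8.50 kb among the 831 that were higher in all 4 groups and 50.7 kb among the 3336 that were lower. In 1888 genes of up to 10 kb the median log2 ratio was 0.00, in 2645 of 10 to 30 kb −0.06, in 2517 of 30 to 100 kb −0.15 and in 1059 over 100 kb −0.25. The longest class lay between −0.21 and −0.27 in each of the 4 groups. Of its genes 846 were lower and 19 higher in all 4, against 317 and 452 of the shortest. With Apoe-low cells weighted for depth the medians were 0.00, −0.04, −0.11 and −0.19, and with at least 3000 CPM of *Apoe* as the threshold 0.01, −0.06, −0.16 and −0.29. Under scaling by the median of ratios the order was the same, from 0.09 to −0.17. The share of reads from introns is not known from these counts, and its part in this was not tested. The gene lists above, such as those of the lysosome and glycolysis, were set beside all genes and not beside genes of like length. The part of length in their counts was not tested.

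**Figure D4:**
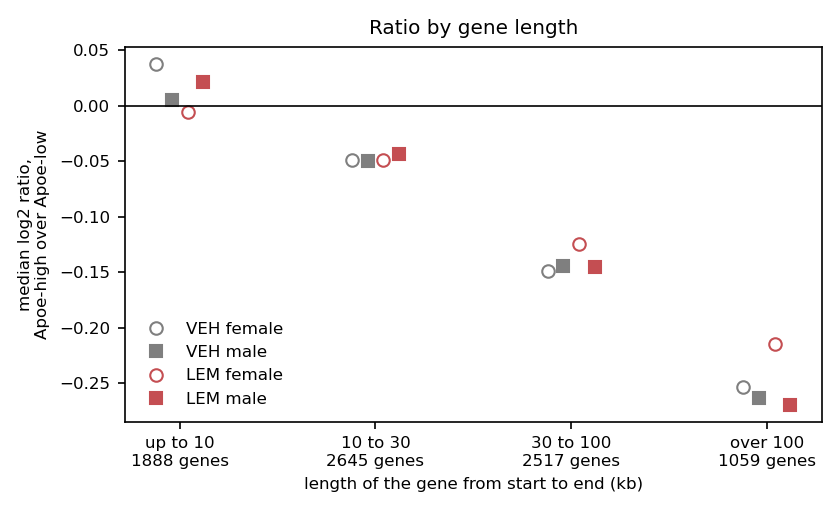
Median log2 ratio of CPM, Apoe-high over Apoe-low cells (y), over genes of 4 classes of length from start to end (x, kb, with the number of genes). Grey is VEH, red LEM, open circles female and filled squares male cells. The 4 groups lie close together in each class and run from about 0 for genes of up to 10 kb to between −0.21 and −0.27 for genes over 100 kb.

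The threshold of 20 counts cut through a gradient. *Lyz2* stood at 151, 188, 234, 307, 361 and 555 CPM in VEH cells with 0, 1 to 4, 5 to 9, 10 to 19, 20 to 39 and at least 40 *Apoe* counts, and at 211, 225, 258, 305, 355 and 517 CPM in LEM. Just outside the threshold, at 18 or 19 counts, it stood at 355 CPM in VEH and 335 in LEM, and just inside, at 20 or 21 counts, at 273 and 320. *Cd63* stood at 394 and 542 CPM just outside and at 371 and 532 just inside. No step is thus seen at the threshold for either gene. *Cst3* went from 59859 to 81710 CPM in VEH and from 50486 to 69714 in LEM between cells with 0 and with at least 40 *Apoe* counts. *Tmem119* stayed between 2110 and 2197 CPM in VEH and between 2003 and 2259 in LEM over the same 6 classes. The median depth went up along these classes, from 5341 to 8394 counts in VEH and from 5201 to 8319 in LEM.

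**Figure D5:**
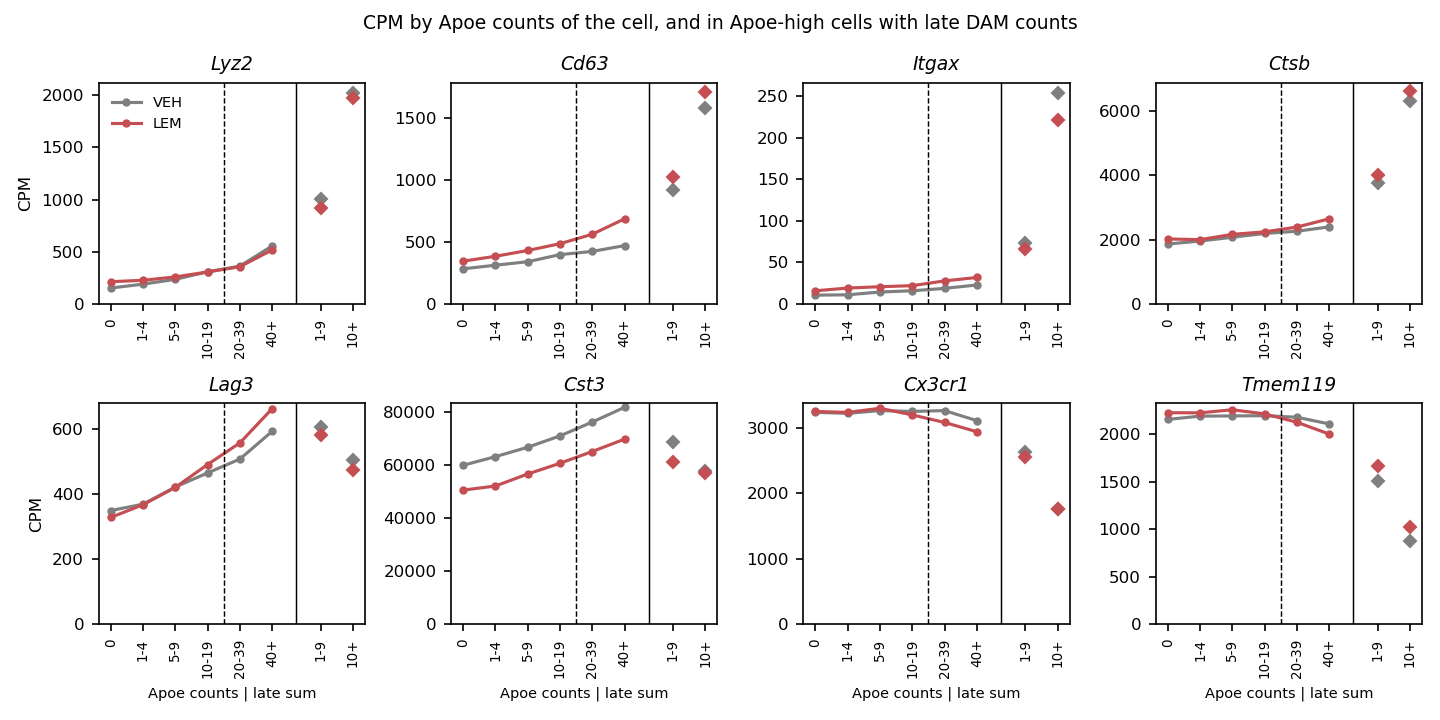
CPM (y) of 8 genes in cells without late DAM counts by their *Apoe* counts (x, 6 classes, circles joined by lines), then in cells with at least 20 *Apoe* counts and a sum of *Cst7*, *Lpl* and *Spp1* of 1 to 9 or of at least 10 (diamonds). Grey is VEH and red LEM, and the dashed line is the threshold of 20. *Lyz2* climbs along the classes and again into the late cells, *Tmem119* differs little along the classes and is lower in the late cells, and *Cst3* and *Lag3* are lower in cells with a late sum of at least 10 than in the last class before them.

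Cells with late DAM genes differed from the Apoe-high cells by more than these did from the Apoe-low cells in the early DAM median. Cells with at least 20 *Apoe* counts and a sum of *Cst7*, *Lpl* and *Spp1* of 1 to 9 numbered 444 in VEH and 888 in LEM, and those with a sum of at least 10 numbered 301 and 437. The late genes chose these groups, so that what follows is a description. Cells with a sum of at least 10 were also deeper, with a median of 12397 and 13219 counts against 7805 and 7578, and more often female, at 26.9% and 35.0% against 12.7% and 11.5% of Apoe-high cells, and the part of either was not tested. Over all genes the median log2 ratio was −0.05 in both libraries with a sum of 1 to 9, and −0.26 and −0.28 with at least 10. Early DAM genes had a median log2 ratio over the Apoe-high cells of 0.59 (VEH) and 0.56 (LEM) in the former and of 1.34 and 1.32 in the latter. Homeostatic genes stood at −0.25 and −0.22, then at −0.72 and −0.61. Glycolytic genes stood at 0.56 and 0.50, then at 1.10 and 1.23. *Lyz2* went from 429 and 407 CPM in Apoe-high cells to 1007 and 922 and then to 2025 and 1977. *Apoe* itself went from 4539 and 4365 to 5832 and 5891 and then to 8391 and 7937.

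*Crybb1*, a crystallin gene of the homeostatic list, was higher in Apoe-high cells than in both Apoe-low cells and cells with many late counts. It stood at 451 and 486 CPM in Apoe-low, at 544 and 541 in Apoe-high and at 102 and 132 in cells with a late sum of at least 10, with log2 ratios of the last over the Apoe-high cells of −2.41 and −2.03 beside −0.26 and −0.28 for the median of all genes. *Lag3* stood at 377 and 394 CPM in Apoe-low, 537 and 591 in Apoe-high and 506 and 475 in cells with a late sum of at least 10, with log2 ratios of the last over the Apoe-high cells of −0.09 (−0.16 to −0.01) in VEH and −0.32 (−0.37 to −0.26) in LEM, so that it did not stand further below the Apoe-high cells than the median gene in VEH. In cells with a late sum of 1 to 9 it stood at 607 and 580 CPM, so that in VEH the Apoe-high cells were not its peak.

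With the sexes pooled, the surplus of the LEM library was larger at a late sum of 0 than at a high one. Genes of the rule set these classes, so this is a description. Of all cells within the limits on *P2ry12*, macrophage genes and *Ttr*, those with at least 20 *Apoe* counts and a late sum of 0, of 1 to 9 and of at least 10 were 8.14%, 2.46% and 1.67% in VEH and 15.9%, 3.72% and 1.83% in LEM. The log2 ratios of LEM over VEH were 0.97 (0.88–1.06), 0.60 (0.43–0.77) and 0.14 (−0.08 to 0.35). In male cells they were 1.05, 0.51 and −0.04, and in female cells 0.67, 0.73 and 0.36. In females the class with 1 to 9 was thus no lower than that with 0. The female intervals with 0 (0.42–0.92) and with at least 10 (−0.04 to 0.76) overlapped. Of all cells with a late sum of at least 10, 72.4% in VEH and 80.9% in LEM had at least 20 *Apoe* counts. With a late sum of 0, 9.24% and 18.2% did. The class with at least 10 thus had less room to grow through higher *Apoe* counts, and the part of this was not tested. Among cells with at least 20 *Apoe* counts, those with a late sum of 0 were 66.4% in VEH and 74.1% in LEM.

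Cells with counts of the mitotic genes *Mki67* and *Top2a* were rare. With at least 3 counts of both in sum, a limit set after seeing the values, they were 3 of 1471 in VEH (0.204%, 0.042–0.595) and 30 of 3798 in LEM (0.790%, 0.534–1.13). In Apoe-low cells they were 84 of 14443 (0.582%, 0.464–0.720) and 94 of 17117 (0.549%, 0.444–0.672). The intervals of Apoe-high and Apoe-low cells overlapped in both libraries. *Mki67* stood at 0.885 CPM in VEH Apoe-high cells and 13.6 in LEM, against 10.8 and 8.93 in Apoe-low cells. In male cells alone they were 2 of 1029 and 25 of 2653.

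Within the Apoe-high cells the medians of the early and later DAM lists were near level between the libraries. Of 8171 genes tested, 33 (0.404%) stood at least 0.5 higher in LEM in both sexes and 32 (0.392%) at least 0.5 lower, and 33.2% were higher and 20.1% lower in both sexes by any amount. Early DAM genes had a median log2 ratio of LEM over VEH of 0.02, later ones of −0.06, the 13 further DAM genes of 0.14 and homeostatic ones of −0.02. In Apoe-low cells the same medians were 0.09, 0.00, 0.12 and 0.01. Single genes went both ways behind these medians. In both sexes of the Apoe-high cells, 3 of the 6 early DAM genes were higher in LEM and 1 lower. Of the 7 later ones 2 were higher and 3 lower, and of the 28 homeostatic ones 6 were higher and 12 lower. Of the 13 further DAM genes 6 were higher and 1 lower in LEM in both sexes of the Apoe-high cells. With the sexes pooled 11 of them were higher, as were 4987 of all 8171 genes. *Lyz2* stood at 429 CPM in VEH and 407 in LEM Apoe-high cells, a ratio of −0.08, and at 189 and 246 in Apoe-low cells, a ratio of 0.38. All 7 interferon-response genes tested were higher in LEM in both sexes of the Apoe-high cells, with a pooled median of 0.33. Of the 7, *Ifitm3* passed the detection limit only through the LEM Apoe-high cells, where it is high. In Apoe-low cells the pooled median was 0.44, and 5 of the 7 were lower in LEM male cells. *Ly6e* had the highest pooled ratio, at 466 CPM in VEH and 1040 in LEM. The median of the 7 in Apoe-high over Apoe-low cells was 0.11. It was −0.12 in male cells alone, with 6 genes tested, and 0.24 in female cells alone, with 9.

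The genes furthest apart between the libraries differed in the same direction in Apoe-low cells, pooled over the sexes. Higher in LEM Apoe-high cells were *Trim12a*, *Adcy8*, *Magi1*, *Gapdh*, *Pira2*, *Camk2b*, *Klrd1* and *Cdk5rap1*. Of these, all but *Magi1* and *Gapdh* passed the detection limit only through the LEM cells, where they are high. Lower were *Tubb2b*, *Ets1*, *Pianp*, *Cfap77*, *Tubb2a*, *Agrp*, *1700006J14Rik* and *Atp6v0e2*. All but *Cfap77* and *Tubb2a* passed it only through the VEH cells, so that the place of such genes is partly set by the limit. *Cfap77* stood at 481 against 135 CPM in Apoe-high and 384 against 102 in Apoe-low cells of VEH and LEM, with log2 ratios of −1.83 and −1.91. *Tubb2b*, a beta-tubulin close in sequence to *Tubb2a*, had −2.43 and −2.10. A tubulin read could be counted for either, so their split is uncertain.

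Some of these genes also parted Apoe-high from Apoe-low cells, by different amounts in the libraries. *Camk2b*, a calcium-dependent kinase, stood at 14.7 against 33.1 CPM in VEH and 54.3 against 51.5 in LEM. *Gapdh* stood at −0.57 and −0.75 in VEH female and male cells and at 0.03 and 0.36 in LEM. These 2 and *Magi1* differed by more in VEH. *Ets1*, a transcription factor, stood at 15.6 against 35.1 CPM in VEH and 4.35 against 12.9 in LEM, and with the sexes pooled its log2 ratio was −1.17 and −1.57. Its mean over the 4 library-by-sex groups, within the range given above for the lowest genes, was smaller in size than either. Male cells were 84.6% and 85.8% of the sexed Apoe-high cells, against 61.8% and 58.1% of those within the other limits. The part of sex in the pooled values, those of *Camk2b* included, was not tested. *Cfap77* had 0.32 and 0.40. Within VEH, *Camk2b*, *Gapdh* and *Magi1* were lower in Apoe-high than in Apoe-low cells, while all of them were higher in LEM than in VEH. Whether single mice of a pool gave more Apoe-high cells than others was not tested. *Cd63*, *Cst3* and *Ctsb* had ratios of one sign and like size in both libraries and sexes, while those of *Lyz2* had one sign but were larger in VEH than in LEM.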

How the data were processed

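The authors made 10x Genomics 5′ libraries from sorted microglia and, per their processing notes, used Cell Ranger 8.0.0 and mm10 to count reads. They deposited whole-number UMI counts per gene and cell without normalization. The methods name SoupX for free RNA, and whether its correction is in the deposited counts cannot be told. Cells of the table were matched to a library by the start of their names, with 0 unmatched. The names carry no barcodes, so barcodes shared by the libraries could not be counted. The table has no cell type annotation.

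The members and gene lists were chosen with earlier results of these data known. Counts were summed over the cells of a group and divided by their total (CPM), and ratios of CPM are on the log2 scale. No ratio is given where both groups held at most 3 counts. Female cells had *Xist* and no Y-linked count and male cells the reverse, and these genes are not read as results. Genes were tested, in the sense of entering a count, when detected in at least 10% of Apoe-high or Apoe-low cells of either library. Genes of the 28 lists may be named, as well as the 12 highest and 12 lowest ratios with the same sign in all 4 library-by-sex groups, the 8 highest and 8 lowest of LEM over VEH with the same sign in both sexes, and the 5 most correlated with *Apoe* per library. *Clec7a* and *Mx1* are not analysed here. Of the listed genes, 1 is not reported here.

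Intervals are at a confidence level of 95% and, like the floor of 3 counts, cover counting error only. UMIs were used, but a gene whose counts gather in few cells varies more than its interval. No doublet caller was run. Alternatives left out droplets with counts of both sexes or over 12000 counts, changed the *Apoe* threshold (10 or 40 counts, or 3000 CPM of the cell), thinned cells to 2000 counts with at least 7 of *Apoe*, kept a late sum of 1, took each sex alone or weighted equally, weighted Apoe-low cells to the sex and depth of Apoe-high cells, scaled by the median of ratios or without *Apoe* and the 20 most abundant genes, or required detection in 1% of cells. Leaving out cells with at least 10 *Cd74* counts and requiring detection in Apoe-low cells were chosen after seeing the data. On simulated counts of 6981 genes for the 4 library-by-sex groups, 200 of them shifted by 1 on the log2 scale, 99.5% of the changed and 0% of the other genes passed 0.5 in all 4 groups. These counts were Poisson with the same rate in each group, without spread between mice or cells, and genes of low level were left out. The shares thus cover counting error alone and do not tell how often real genes would pass. Gene positions are from GENCODE M21 on GRCm38. The work was done in Python 3.11.15. Intervals were from scipy 1.17.1, sums from numpy 2.4.6, tables from pandas 2.3.3 and plots from matplotlib 3.10.9.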

Additional observations from a re-analysis of the deposited data

Results flagged for a closer look

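Of the early DAM, later DAM and homeostatic genes and the 12 genes highest in Apoe-high over Apoe-low cells, 3 stood on opposite sides of 0 in female and male Apoe-high cells when LEM was set against VEH, with intervals that did not overlap. Over all 8171 genes tested, 33.2% were higher and 20.1% lower in LEM in both sexes, so genes without a shared sign were common. How many of all genes also had intervals that did not overlap was not counted. *Fth1*, the ferritin heavy chain, had a log2 ratio of 0.25 in female and −0.14 in male cells. *Slc1a3*, a glutamate transporter, had 1.24 and −0.90. *Crlf2*, a cytokine receptor chain, had −0.54 and 0.51. The other lists were not searched in the same way, and among their MHC class II genes *H2-DMa* (1.21 and −0.97) and *H2-DMb1* (0.57 and −0.80) stood on opposite sides too. The differences between the sexes were not tested, since each rests on 1 pool per treatment and on 187 VEH and 438 LEM female cells.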

How the results depend on the processing

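No paired analysis was possible because there was 1 library per treatment and the labels carry no replicate numbers. Mice within a pool cannot be parted and rare genes are limited by depth. The 24 genes furthest apart between Apoe-high and Apoe-low cells and the 16 between the libraries had the same direction of the mean under every alternative run. For each sex alone this is fixed by their choice for one sign in all groups. The 1% detection limit leaves a ratio as it is, and the scalings shifted the median gene by 0.090 or less, so these runs could not turn them either. In the values below, shares are of Apoe-high cells, early DAM, later DAM, homeostatic and interferon name the median log2 ratio of Apoe-high over Apoe-low cells of that list, and counts are of genes past 0.5. The cause of each shift was not tested.

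With at least 10 *Apoe* counts the shares were 18.003% in VEH and 34.4% in LEM, later DAM 0.27, homeostatic −0.063 and interferon −0.084. With at least 40 the shares were 2.93% and 5.23% (log2 0.83), early DAM 0.31, later DAM 0.24, homeostatic −0.13, and 88 genes were higher and 53 lower in LEM. With 3000 CPM, 8 genes were lower in Apoe-high cells, early DAM was 0.27 and 17 genes were higher in LEM. Thinned cells gave a LEM share of 16.9% (log2 0.83), 9 genes lower in Apoe-high cells, early DAM 0.33, homeostatic −0.11, and 8 genes higher and 11 lower in LEM. After thinning 21265 LEM cells were within the other limits, against 20915 before. Cells that failed a limit on raw counts, such as that on late genes, could thus enter, and the cells differ from those above. Without droplets of both sexes the LEM share was 17.4%. Without cells over 12000 counts the shares were 8.43% and 16.4%, 7 genes were lower and early DAM was 0.27.

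Female cells alone gave 3.81% and 6.11% (log2 0.68), 10 genes higher and 28 lower in Apoe-high cells, homeostatic −0.11, 514 genes higher and 408 lower in LEM, and a later DAM median of LEM over VEH of 0.020. Male cells alone gave 12.97% and 26.7%, 11 genes lower, later DAM 0.27, homeostatic −0.074, interferon −0.12, and 112 genes higher and 68 lower in LEM. Each sex alone has fewer groups to pass, which by construction raises such counts. With a late sum of 1 kept the shares were 9.78% and 18.8% and 1 gene was lower. With weighted Apoe-low cells 2 genes were higher, early DAM was 0.19, homeostatic −0.065 and interferon −0.0030. Scaling by the median of ratios left 0 genes lower, with early DAM 0.33, later DAM 0.44 and homeostatic −0.00043. Interferon was 0.20 under this scaling, 0.24 in female cells alone and 0.18 with at least 40 *Apoe* counts. Totals without *Apoe* and the 20 most abundant genes left 0 lower, with early DAM 0.29 and homeostatic −0.046. Detection in 1% of cells gave 18 genes higher and 22 lower in Apoe-high cells, and 292 higher and 136 lower in LEM, from more genes tested, and detection required in Apoe-low cells gave 3 genes higher, from fewer.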
